A study of Homo sapiens with 11 samples.

Results

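PTGS2 and the enzymes, receptors and transporter that make, sense, export and break down prostaglandin E2 (PGE2) were followed in xenograft tumours from animals given vehicle or evexomostat. The 10 genes were PLA2G4A, PTGS1, PTGS2, PTGES, PTGES2, PTGES3, ABCC4, PTGER2, PTGER4 and HPGD. They were chosen by symbol for their role in the pathway, with earlier results of these data known. Their adjusted p-values are therefore not those of genes picked without sight of the data. All 10 were found among 28152 gene symbols and passed the count filter that left 16653 genes. PTGS2 was singled out because its log2 fold change was among the lowest in this same comparison, so its treatment difference is a description without a test. The tumours were grown from cells labelled BT474, a breast cancer line labelled HR+/Her2+, in the mammary fat pad of female athymic nude mice, a host that lacks mature T cells and keeps other immune and stromal cells. Estradiol was supplied to all animals, controls included, by an implanted pellet (0.72 mg, 90 days), and tumours entered the study above 95 cubic millimetres. Vehicle (5% mannitol in water, 6 tumours) or evexomostat (SDX-7320, an inhibitor of methionine aminopeptidase 2, at 12 mpk, 5 tumours) was injected under the skin every 4 days, and all libraries are labelled day 33. The labels give no animal ages and do not name an animal for each library, so p-values measure the spread between these libraries.

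PGE2 is a short-lived lipid signal made from arachidonic acid, which cytosolic phospholipase A2 frees from membranes. Cyclooxygenases turn arachidonic acid into prostaglandin H2, PGE2 synthases finish the molecule, and the signal leaves the cell through ABCC4 to act on EP receptors such as PTGER2 and PTGER4, which raise cyclic AMP. In breast and other epithelial cancers PTGS2, the inducible cyclooxygenase, is known as an inflammation gene switched on by NF-kB, C/EBP and CREB factors, while PTGS1 is usually constitutive.

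Library totals ran from 22808033 to 39249329 counts. Levels are TMM-normalised CPM, that is counts scaled to a common library size with a correction for composition. Vehicle replicate 001 stood apart: its top 100 genes held 23.9% of all its counts, where the share was 16.2% to 17.9% elsewhere. Without it the log2 fold changes were -3.76 for PTGS2, -1.53 for PTGES and -1.17 for PLA2G4A, and a call that changed without it is given beside the gene concerned. Markers of the labelled cell type were mostly low. The luminal genes KRT8 (167 to 562 CPM), KRT18 (100 to 193 CPM) and XBP1 (103 to 225 CPM) were abundant in every library. Other luminal genes were low: KRT19, CDH1 and FOXA1 were at most 1.65, 1.34 and 1.91 CPM in any library. EPCAM was at most 5.28 CPM and GATA3 at most 10.2 CPM. The genes behind the receptor label were low as well. ESR1 was at most 0.625 CPM and PGR at most 0.143 CPM in any library, GRB7 stayed under 1 CPM, and ERBB2 was between 26.7 and 66.5 CPM. The levels of ESR1 and PGR do not bear out the HR+ part of the label, and the identity of the cells was not tested. The mesenchymal genes VIM, CD44, ZEB1, AXL, CAV1 and LOX summed to between 2010 and 2940 CPM over all 11 libraries. VIM (696 to 1680 CPM) and CD44 (564 to 1750 CPM) were the highest of them. ZEB1 (22.9 to 35.5 CPM) and LOX (6.65 to 41.3 CPM) were the lowest.

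PTGS2, which makes the prostaglandin H2 needed for PGE2 in inflamed tissue, was at 13.6 CPM in vehicle replicate 001, 66.9 in replicate 003, 44.4 in replicate 004, 62.6 in replicate 005, 37.0 in replicate 006 and 129 in replicate 007. Under evexomostat it was at 2.95, 4.82, 7.10, 5.23 and 4.91 CPM in replicates 002, 003, 004, 005 and 007. The groups did not overlap, and the lowest vehicle library was 1.91-fold above the highest evexomostat library. The vehicle tumours also differed widely among themselves, by 9.51-fold from lowest to highest, against 2.41-fold under evexomostat. Both figures for vehicle rest on replicate 001: without it the gap between the groups was 5.21-fold and the vehicle range 3.49-fold. The estimated log2 fold change was -3.56 (SE 0.47), a level 8.48% of that in vehicle. It lay between -3.78 and -2.99 in the 22 alternative analyses. In bulk tumour RNA, fewer cells that express a gene and less RNA per cell cannot be told apart.

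PTGS1, the second cyclooxygenase, ranged from 4.2 to 17.8 CPM under vehicle with a median of 9.43, and was at 4.53, 7.13, 8.55, 7.75 and 7.59 CPM under evexomostat. These ranges overlapped, since all 5 evexomostat libraries lay within the vehicle range, and the log2 fold change of -0.48 (SE 0.36, adjusted p 0.633 by edgeR) did not pass the threshold of 0.05. Its 95% interval was -1.26 to 0.30. Per kilobase of exon, PTGS2 made up 84.1% ± 8.91 (SD, n = 6) of the summed level of both cyclooxygenases under vehicle, from 73.2% to 94.2%. It made up 43.2% ± 2.54 (SD, n = 5) under evexomostat, from 41.6% to 47.7%. PTGS2 was thus above PTGS1 per length in 6 of 6 vehicle libraries and below it in 5 of 5 evexomostat libraries, as a description that rests on the same difference in PTGS2.

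**Figure D1:**
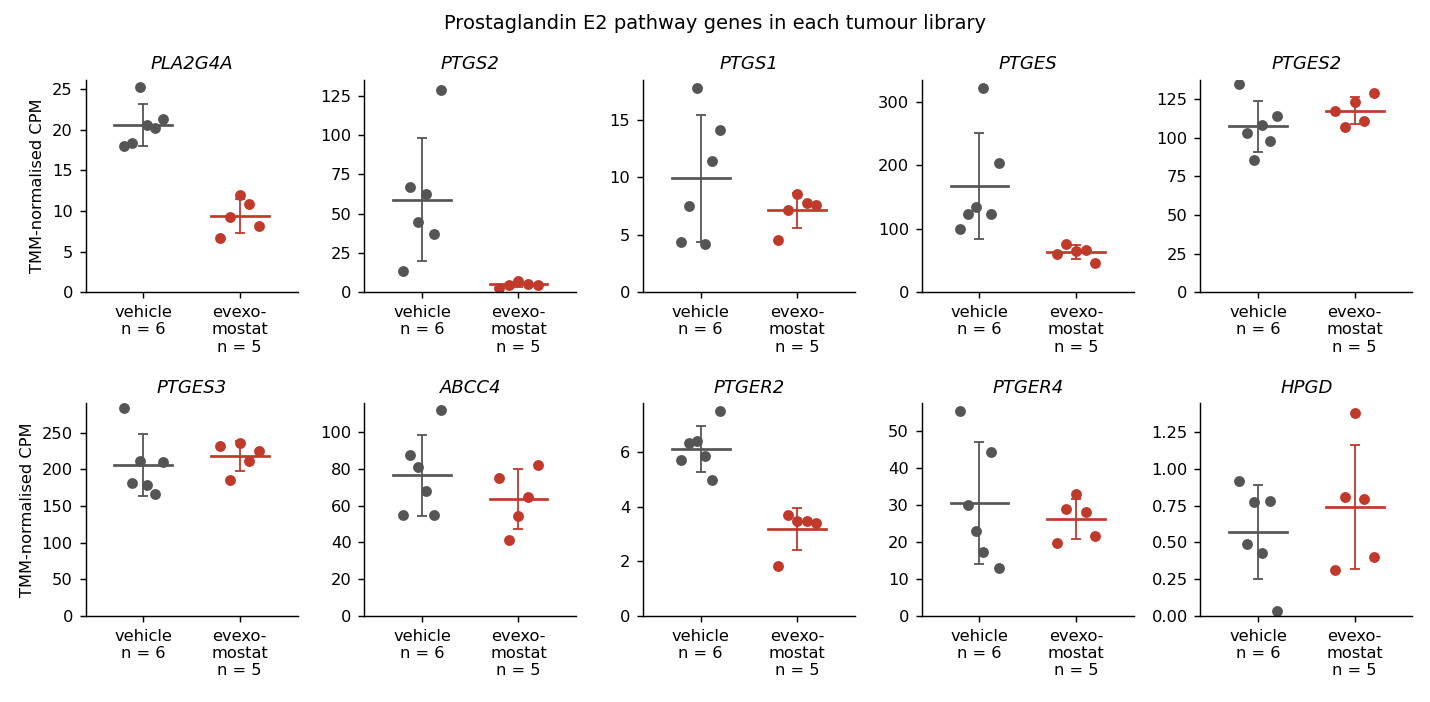
Level of each of the 10 genes in TMM-normalised CPM (vertical axes from 0, scale per gene), with each point a tumour library, horizontal lines the group means and bars the SD (vehicle n = 6, evexomostat n = 5). PLA2G4A, PTGS2, PTGES and PTGER2 show groups that do not overlap, and the other 6 genes overlap.

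The sequence upstream of PTGS2 is shown because its known induction sites lie close to the start of transcription, and that of PLA2G4A and PTGES because their transcripts fell. Each window covers 250 bases before to 50 bases after a gene's RefSeq start (GRCh38.p14), 5′ to 3′ on the gene's strand, at chr1:186680374-186680673 (minus strand) for PTGS2, chr1:186828699-186828998 (plus strand) for PLA2G4A and chr9:129752993-129753292 (minus strand) for PTGES. Capitals mark matches on either strand to 4 motifs. The CRE core was searched as TGACG and the C/EBP motif as TTNNGNAA. The loose NF-kB form was any run that opens with 3 G and closes with a pair of C after 5 free bases, and it may overlap other matches. The TATA box was searched as TATAAA.
PTGS2 promoter: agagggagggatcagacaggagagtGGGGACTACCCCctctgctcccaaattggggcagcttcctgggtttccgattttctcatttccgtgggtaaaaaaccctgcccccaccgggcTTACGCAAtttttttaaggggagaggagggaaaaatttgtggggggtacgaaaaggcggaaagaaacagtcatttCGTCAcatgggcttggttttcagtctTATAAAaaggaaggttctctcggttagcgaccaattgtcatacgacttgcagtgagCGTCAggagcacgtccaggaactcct
PLA2G4A promoter: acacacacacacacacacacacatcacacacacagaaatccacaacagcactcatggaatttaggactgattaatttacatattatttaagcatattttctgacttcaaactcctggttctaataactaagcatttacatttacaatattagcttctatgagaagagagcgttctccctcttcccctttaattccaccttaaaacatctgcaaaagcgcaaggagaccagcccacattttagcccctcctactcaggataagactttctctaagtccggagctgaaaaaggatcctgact
PTGES promoter: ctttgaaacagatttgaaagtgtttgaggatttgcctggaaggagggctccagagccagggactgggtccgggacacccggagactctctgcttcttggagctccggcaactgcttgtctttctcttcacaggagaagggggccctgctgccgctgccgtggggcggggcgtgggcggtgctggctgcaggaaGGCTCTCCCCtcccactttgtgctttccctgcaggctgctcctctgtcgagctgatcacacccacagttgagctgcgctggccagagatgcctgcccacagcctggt
The PTGS2 window held TTACGCAA starting at base -133, a CRE core at -58 and another at +25, a TATA box at -32, and 3 overlapping matches to the loose NF-kB form starting at -225, -224 and -223. The PTGES window held the NF-kB form alone, at -57, and the PLA2G4A window held none of the 4 motifs. Of 35116 windows of this length in the table, 24.6% held the CRE core, 36.8% the C/EBP motif, 58.7% the loose NF-kB form and 11.5% the TATA box. Among the 7 of 10 genes with a single start in the table, 4 held the CRE core, 6 the NF-kB form, and PTGS2 was the only holder of the C/EBP motif and of the TATA box. These letters describe the windows and show no binding.

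PLA2G4A, the cytosolic phospholipase A2 that supplies arachidonic acid to both cyclooxygenases, fell under evexomostat. Its vehicle libraries lay close together, from 18 CPM in replicate 001 to 25.2 in replicate 004 with a median of 20.3. The evexomostat libraries were at 6.70, 9.19, 11.9, 10.9 and 8.15 CPM, all below every vehicle library. Means were 20.6 ± 2.61 (SD, n = 6) and 9.37 ± 2.08 CPM (SD, n = 5). On the log2 scale the change was -1.14 (SE 0.17) with an adjusted p of 0.0151 in edgeR. The adjusted p was 0.0525, 0.0558 and 0.0654 without evexomostat replicates 002, 005 and 007, and under 0.05 in the other 19 alternatives.

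PLA2G4A is also the neighbour of PTGS2 on chromosome 1. In RefSeq's order (GRCh38.p14) the only gene between them is PACERR, a non-coding RNA that begins beside the PTGS2 start and had 0 to 20 counts per library, too few to be tested. On the far side of PTGS2 the nearest tested protein-coding genes were ODR4, with a log2 fold change of -0.28 (SE 0.14, adjusted p 0.419 by edgeR), and TPR, with -0.28 (SE 0.22, adjusted p 0.643 by edgeR). Neither passed the threshold, and the difference between them and the PTGS2 and PLA2G4A pair was not tested.

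Of the 3 PGE2 synthases, only PTGES passed the threshold in the edgeR comparison. PTGES, the inducible microsomal synthase that works together with PTGS2, ranged from 99.4 CPM in vehicle replicate 001 to 321 in replicate 005, with a median of 129. Under evexomostat it was at 60.8, 76.5, 65.1, 65.9 and 45.6 CPM, again below every vehicle library. Means were 167 ± 83.1 (SD, n = 6) and 62.8 ± 11.2 CPM (SD, n = 5). On the log2 scale the change was -1.42 (SE 0.28) with an adjusted p of 0.0462 in edgeR. The call sat near the threshold: it was lost in 13 of 22 alternatives, with upper quartile scaling (adjusted p 0.0557) and without any of the evexomostat libraries or vehicle replicates 003, 004, 006 or 007 (0.0508 to 0.149) among them. It kept its direction in all 22, from -1.64 to -1.12, the smallest without vehicle replicate 005.

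PTGES2, a membrane-bound synthase that does not depend on inflammation, was at 117, 107, 123, 111 and 129 CPM under evexomostat, within the vehicle range of 85.5 to 135 (median 106). Its log2 fold change was 0.13 (SE 0.13, adjusted p 0.732 by edgeR), with a 95% interval of -0.14 to 0.41. PTGES3, the cytosolic synthase also known as the HSP90 co-chaperone p23, ranged from 167 to 284 CPM under vehicle and from 185 to 236 under evexomostat (log2 fold change 0.09, SE 0.15, adjusted p 0.868 by edgeR, interval -0.23 to 0.40). Neither synthase passed the threshold, and the difference between them and PTGES was not tested. Per kilobase of exon, PTGES made up 46.3% ± 12.0 (SD, n = 6) of the summed level of the 3 synthases under vehicle and 24.4% ± 4.69 (SD, n = 5) under evexomostat. Its lowest vehicle share, 29.1% in replicate 001, lay below its highest evexomostat share of 31.0% in replicate 003, so these shares overlapped.

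**Figure D2:**
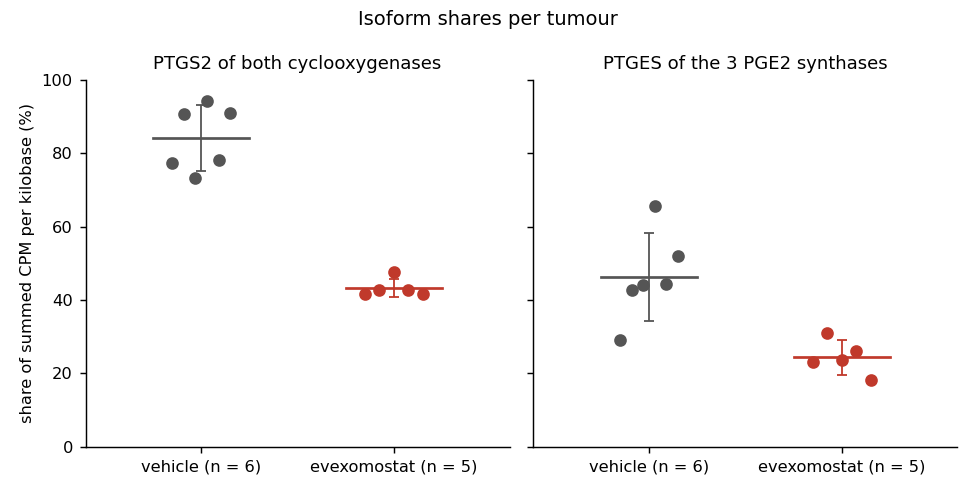
Share of PTGS2 in the summed CPM per kilobase of PTGS1 and PTGS2 (left) and of PTGES in that of PTGES, PTGES2 and PTGES3 (right), in percent, with points for libraries, lines for means and bars for SD (vehicle n = 6, evexomostat n = 5). The PTGS2 share sits at 73.2% or more under vehicle and at 47.7% or less under evexomostat, while the PTGES shares overlap slightly.

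The exporter ABCC4, a pump of the multidrug resistance family that carries PGE2 out of cells, ranged from 54.9 to 112 CPM under vehicle (median 74.6) and from 41.1 to 82.0 CPM under evexomostat. The ranges overlapped, with a log2 fold change of -0.27 (SE 0.22, adjusted p 0.659 by edgeR). HPGD, the dehydrogenase that inactivates PGE2, was close to the limit of detection. It had 1 to 27 counts per vehicle library and 10 to 38 per evexomostat library, at 0.572 ± 0.322 CPM (SD, n = 6) and 0.739 ± 0.422 (SD, n = 5), and its log2 fold change of 0.37 (SE 0.53, adjusted p 0.835 by edgeR) says little at this depth.

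The receptor PTGER2, which signals through cyclic AMP, ranged from 4.99 CPM in vehicle replicate 006 to 7.5 in replicate 007, with a median of 6.09. It was at 1.83, 3.69, 3.48, 3.48 and 3.42 CPM under evexomostat, so that no evexomostat library reached a vehicle library. The log2 fold change of -0.95 (SE 0.21) had an edgeR adjusted p of 0.0665, which missed the threshold. Without vehicle replicate 001 the adjusted p was 0.0265, and over the 22 alternatives it ran from 0.000335 to 0.178. PTGER4, the other receptor coupled to cyclic AMP, behaved less evenly among vehicle tumours, from 12.9 CPM in replicate 007 to 55.3 in replicate 001. All 5 evexomostat libraries, at 19.8 to 32.9 CPM, lay within that range. Its log2 fold change was -0.21 (SE 0.33, adjusted p 0.846 by edgeR), and the sign flipped to 0.05 without vehicle replicate 001 and to 0.03 or 0.04 with limma-trend on RPM, and also with quality weights (0.06) and on the 8 libraries with shared numbers (0.41 or 0.47). Those 8 libraries also lack vehicle replicate 001. PTGER4 overlaps TTC33 on the opposite strand, and the strand setting of the counting is not given in the sources used here, so some of its reads may belong to that gene. TTC33 itself had a log2 fold change of -0.08 (adjusted p 0.898 by edgeR). The other PGE2 receptors, PTGER1 and PTGER3, had at most 8 and 5 counts in any library and were not tested.

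**Figure D3:**
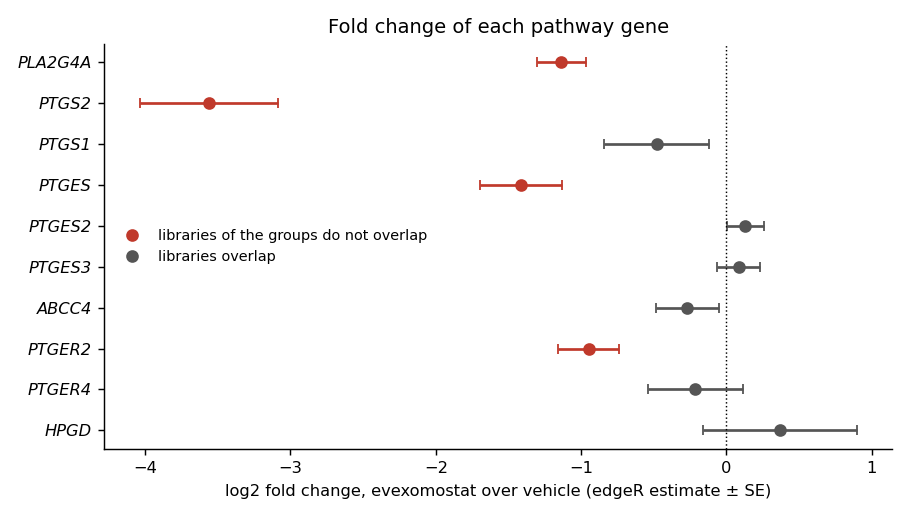
Log2 fold change of each of the 10 genes, evexomostat over vehicle, as the edgeR estimate with bars of 1 SE (6 vehicle and 5 evexomostat libraries). PTGS2 lies at -3.56 and PTGES, PLA2G4A and PTGER2 between -1.42 and -0.95, while the genes in grey, whose libraries overlap, lie between -0.48 and 0.37.

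In all, 3 of the 10 genes were under the threshold in edgeR's quasi-likelihood test with Benjamini-Hochberg adjustment over 16653 genes, all lower under evexomostat. Of all tested genes 0.606% passed in either direction and 0.432% were lower. The groups did not overlap in 4 of the 10 genes, all lower, against 2.97% of all tested genes in either direction and 1.64% that were lower. The list was drawn up with this contrast in view, so nothing is read from these counts. The 3 were PTGS2, whose value in this contrast chose it and is no test, the inducible synthase PTGES and the phospholipase PLA2G4A. In the authors' deposited table the log2 fold changes of PTGS2, PTGES, PLA2G4A and PTGER2 are -3.47, -1.32, -1.04 and -0.85. The authors' deposited table gives adjusted p-values of 0.00112 for PTGES, 0.00314 for PLA2G4A and 0.10 for PTGER2, with 0.952% of its 28152 genes under 0.05.

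**Figure D4:**
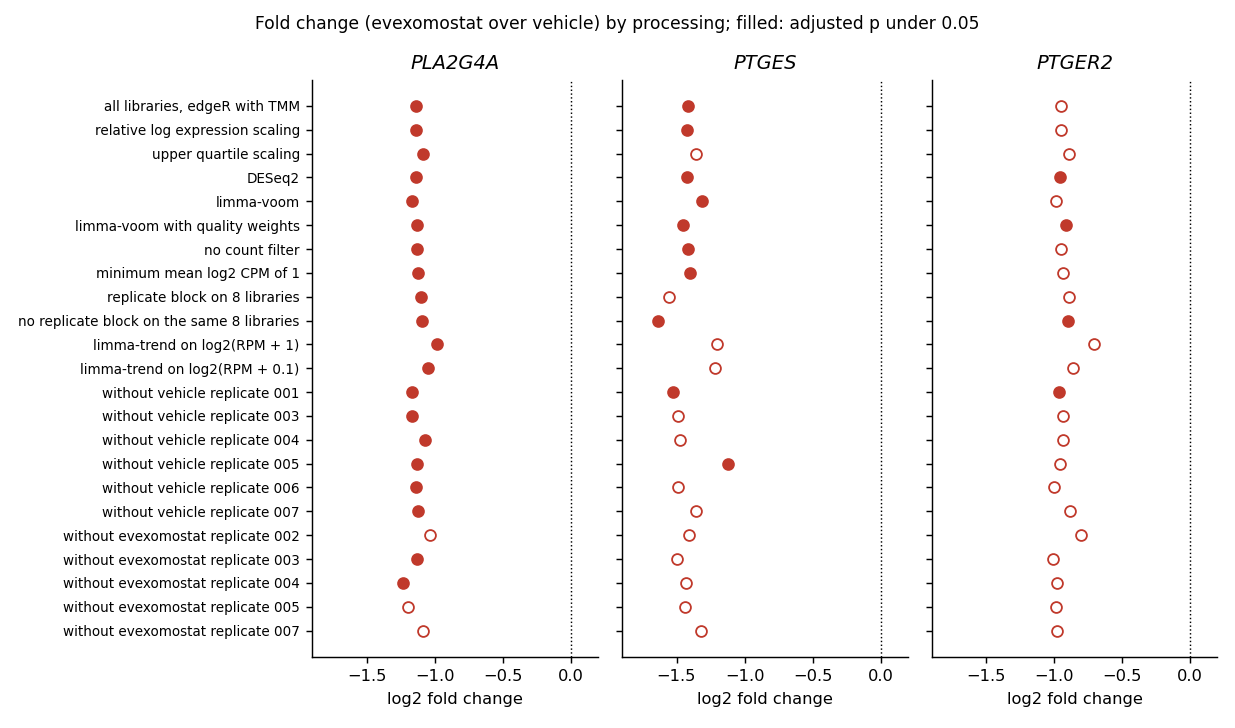
Log2 fold change of PLA2G4A, PTGES and PTGER2, evexomostat over vehicle, in the edgeR comparison and 22 alternatives (rows), with filled circles for an adjusted p under 0.05. All values lie below 0, and PLA2G4A is filled in 20 of 23 rows, PTGES in 10 and PTGER2 in 4.

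Around these 10 genes, 6 lists of related genes were counted in the same comparison, 99 different genes in all apart from the 10, of which 87 were tested. PDE4D and RELB were past the threshold, both lower under evexomostat, and 28 of the 87 had an unadjusted p under 0.05. Over all 16653 tested genes 13.4% had such a p, 55.4% had a log2 fold change below 0 and the median was -0.04. DESeq2 called 3.90% of all genes, and edgeR without vehicle replicate 001 called 5.22%, against which the calls of those settings below are to be read. PDE4D, a phosphodiesterase that breaks down cyclic AMP and is induced by it, ranged from 35.7 to 60.2 CPM under vehicle and was at 26.3, 27.2, 25.2, 21.3 and 21.6 CPM under evexomostat. Its groups did not overlap, and its log2 fold change was -0.87 (SE 0.16, adjusted p 0.0313 by edgeR). The adjusted p was above 0.05 when any of the 5 evexomostat libraries or vehicle replicate 005 was left out (0.0559 to 0.123) and with limma-trend on RPM (0.0726 and 0.0717). RELB, an NF-kB subunit, was at 100 to 120 CPM under vehicle and at 65.4, 69.0, 82.5, 64.1 and 66.5 CPM under evexomostat. It fell by 0.65 as a log2 fold change (SE 0.11), with an edgeR adjusted p of 0.0246, and its adjusted p was above 0.05 when evexomostat replicate 002, 003, 005 or 007 was left out (0.0523 to 0.110) and with limma-trend on RPM at a pseudocount of 0.1 (0.053).

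Among 19 tested genes that cyclic AMP and CREB induce or that carry that signal, 17 had a fold change below 0 and the median was -0.51. Apart from PDE4D none passed the threshold in edgeR, where 9 of the 19 had an unadjusted p under 0.05, and DESeq2 called 4. IL6, an inflammatory cytokine of this list named after its value was seen, had groups that did not overlap and a log2 fold change of -1.40 (SE 0.33, adjusted p 0.0811 by edgeR). It passed the threshold without vehicle replicate 001 and with DESeq2. Among 19 tested inducers and transcription factors of PTGS2, 18 were below 0 with a median of -0.38, and only RELB passed, with 9 at an unadjusted p under 0.05. The number past the threshold was 5 without vehicle replicate 001, namely HIF1A, IL1R1, NFKB1, RELA and RELB. IL1R1, the receptor for interleukin 1, named after its value was seen, was at -1.12 (SE 0.32, adjusted p 0.137 by edgeR). IL1B, its ligand, was at -0.66 (SE 0.34, adjusted p 0.437 by edgeR). The 10 RNA-binding proteins that steady or destroy AU-rich transcripts such as PTGS2 had a median of 0.04, and 0 passed in edgeR or DESeq2, with 1 at an unadjusted p under 0.05. ZFP36, which marks such transcripts for decay, was at -0.34 (SE 0.24, adjusted p 0.607 by edgeR). Its relative ZFP36L2 was at -0.37 (adjusted p 0.293), the cold-induced RBM3 at -0.29 (adjusted p 0.559) and CELF2 at 0.24 (adjusted p 0.715) in the same edgeR test.

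Other prostanoid enzymes, receptors and carriers showed 11 of 14 tested genes below 0 and a median of -0.34. The edgeR test called 0 of them, with 4 at an unadjusted p under 0.05, limma-voom 0 and DESeq2 3. AKR1B1, an aldo-keto reductase that can make prostaglandin F2 alpha, ranged from 591 to 1183 CPM under vehicle with a mean of 979 ± 213 (SD, n = 6). It was at 650, 458, 580, 353 and 406 CPM under evexomostat, and only replicate 002 reached above the lowest vehicle library. Its log2 fold change was -1.0 (SE 0.21) and its edgeR adjusted p of 0.0556 missed the threshold, while it was under 0.05 in 6 of 22 alternatives, with 0.023 without vehicle replicate 001. SLCO2A1, the carrier that takes prostaglandins back into cells, varied from 5.81 to 109 CPM among vehicle tumours and from 2.75 to 9.27 CPM under evexomostat (log2 fold change -2.68, SE 0.74, adjusted p 0.126 by edgeR). Its adjusted p was 0.0404 without vehicle replicate 001 and 0.0193 with DESeq2. AKR1C3, a prostaglandin F synthase, had a log2 fold change of -1.28 (SE 0.40, adjusted p 0.182 by edgeR and 0.0362 by DESeq2) and PTGFR, the prostaglandin F receptor, of -0.58 (SE 0.33, adjusted p 0.480 by edgeR).

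The routes that release, store or compete for arachidonic acid were counted in the same way. Of 11 tested genes for release and re-esterification of arachidonate, 5 were below 0 and the median was 0.00. None passed in edgeR or limma-voom, with 4 at an unadjusted p under 0.05, and DESeq2 called 2. LPCAT3, which puts arachidonate back into membranes, had a log2 fold change of -0.91 (SE 0.38, adjusted p 0.314 by edgeR) and ACSL3, an acyl-CoA ligase, of -0.62 (SE 0.14, adjusted p 0.0666 by edgeR). Without vehicle replicate 001 both passed, LPCAT3 at -1.12 (adjusted p 0.0117) and ACSL3 at -0.60 (adjusted p 0.0273), and ACSL3 also passed with DESeq2 (0.00245). FAAH, which hydrolyses anandamide, was at 0.62 (SE 0.16, adjusted p 0.115 by edgeR and 0.0147 by DESeq2) and the phospholipase PLA2G4C at 0.51 (SE 0.20, adjusted p 0.287 by edgeR). In the lipoxygenase and epoxygenase branches 8 of 16 tested genes were below 0, with a median of 0.01. The edgeR test and limma-voom called 0 there, with 2 at an unadjusted p under 0.05, and DESeq2 called 1. That gene was the lipoxygenase ALOX15B, named after its value was seen, at -2.57 (SE 0.58, adjusted p 0.069 by edgeR). It also passed without vehicle replicate 001. Its level was low, at most 1.52 CPM under vehicle and 0.217 CPM under evexomostat. EPHX1, an epoxide hydrolase, was at -0.54 (SE 0.24, adjusted p 0.338 by edgeR), the leukotriene-inactivating reductase PTGR1 at -0.36 (SE 0.22, adjusted p 0.530 by edgeR), the leukotriene B4 receptor LTB4R at 0.32 (SE 0.25, adjusted p 0.655 by edgeR) and LTA4H, which makes leukotriene B4, at 0.20 (SE 0.22, adjusted p 0.764 by edgeR).

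**Figure D5:**
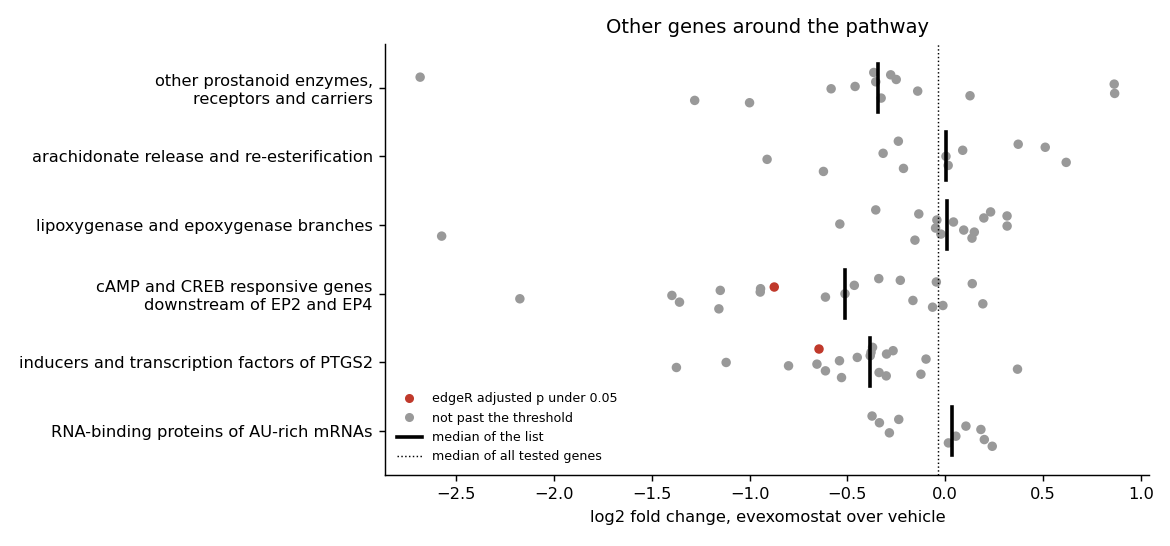
Log2 fold change of each tested gene in the 6 lists (rows), evexomostat over vehicle, with a thick line at the list's median, a dotted line at the median of all tested genes (-0.04) and red points for an edgeR adjusted p under 0.05. The medians of the cyclic AMP list (-0.51), the PTGS2 inducers (-0.38) and the prostanoid list (-0.34) lie left of that line, and the red points are PDE4D and RELB.

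Cells of other kinds can contribute prostaglandin genes, and the handling of mouse reads is not given in the sources used here. No marker gene of the lists checked passed the threshold. The host's cells are mouse cells and the counts are of human genes, so the sums below cannot show how many host cells were present. The part of cells of other kinds in the results was not tested. The 8 fibroblast genes summed to 400 to 2060 CPM under vehicle and 497 to 1070 under evexomostat, with 2 of 8 tested genes below 0 in log2 fold change. The 8 macrophage genes summed to 65.9 to 95.6 and 68.2 to 83.6 CPM, with AIF1 and MRC1 under 1 CPM throughout, and 3 of 7 tested were below 0. The 7 neutrophil genes summed to 44.9 to 212 and 32.6 to 110 CPM, with CXCR2 and FCGR3B under 1 CPM, and 4 of 5 tested were below 0. The 5 mast cell genes were each under 1 CPM in every library. Of the 6 platelet genes PF4, PPBP and GP9 were at 0 counts, and the sums were 1.6 to 4.17 and 2.46 to 3.00 CPM. The 6 endothelial genes summed to 10.5 to 22.4 and 9.92 to 14.0 CPM, the 5 adipocyte genes, with ADIPOQ at 0, to 0.344 to 1.98 and 0.311 to 2.72 CPM, and the 7 skeletal muscle genes to 1.17 to 16.7 and 1.30 to 313 CPM. The 313 CPM belong to evexomostat replicate 005, where ACTA1, MYH1 and MYH2 were at 140, 99.2 and 74.2 CPM, and the next library, evexomostat replicate 004, had 39.9 CPM. All 3 tested muscle genes were above 0 in log2 fold change. Without replicate 005 the adjusted p by edgeR was 0.0558 for PLA2G4A and 0.132 for PTGES. The log2 fold changes were then -1.195 and -1.434, against -1.136 and -1.416 with all libraries. Leaving out evexomostat replicate 002 or 007 instead gave edgeR adjusted p-values of 0.0525 and 0.0654 for PLA2G4A. For PTGES they were 0.123 and 0.149. The 12 luminal genes of the labelled cell type summed to 454 to 961 and 579 to 722 CPM, with 5 of 10 tested below 0. No other gene of this list reached the level of KRT8, KRT18 or XBP1 in any library.

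The genes whose pattern was most like PTGS2 were taken by Pearson correlation of log2 CPM with that gene, over 13067 other genes of at least 1 on the mean log2 CPM scale. Over the deviations of 11 libraries from their group means these were BCL2L11 (0.97), IMPA2 (0.96), ABCF3 (0.95), GAS7 (0.95) and FLRT1 (0.95). Over the 6 vehicle libraries alone they were EFNA3, TMEM179B, KHSRP, CHST11 and SMC1A, each at 0.99 or 1.00. Over the evexomostat libraries alone the same genes, in this order, were at -0.93, 0.61, 0.61, 0.61 and -0.26. With so few libraries large correlations are common: the middle 50% of all genes spanned -0.61 to 0.66 over the vehicle libraries, which share the outlying replicate 001. None of these genes passed the threshold between treatments in edgeR with all libraries. FLRT1, whose groups did not overlap, was higher under evexomostat, at 1.18 (SE 0.27, adjusted p 0.0695), and passed in 5 of 22 alternatives, including DESeq2 (0.00118) and the fit without vehicle replicate 001 (0.0233). CHST11 passed in 1, without vehicle replicate 001 (0.0377).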

How the data were processed

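RNA from 11 tumours was sequenced as paired reads of 150 bases, per the labels' protocols. The submitters' processing notes name bcl2fastq 2.17, STAR 2.7.5c, featureCounts, Subread, edgeR and the builds GRCh37 and hg19. The annotation, strand setting and handling of mouse reads are not given in the sources used here. The authors deposited read counts per gene symbol, an RPM table (counts scaled to each column total) and a comparison table with log2 fold changes, p-values and group means and SDs in RPM. Recomputed from the counts, the RPM and the group means and SDs differed by at most 2e-12.

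Genes were kept with filterByExpr (minimum count 10, total 15), scaled by TMM and compared with edgeR 4.0.16 (quasi-likelihood F-test, R 4.3.3), with Benjamini-Hochberg adjustment over 16653 genes, a threshold of 0.05 and no covariates. Standard errors follow from the F statistic. Log2 CPM used a prior count of 2. Alternatives used other scalings, DESeq2 1.42.0, limma 3.58.1, other filters, RPM (pseudocounts 1 and 0.1), a replicate block and leaving out libraries. The tests were tested on simulated data. Exon lengths came from GENCODE release 29 (GRCh38), another build than the authors'.

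The members and lists were chosen with earlier results of these data known. Named list genes were those past the threshold or, with none, up to 4 with the largest change and a mean log2 CPM of at least 1. Outside this rule, IL6, IL1R1, IL1B, HIF1A, NFKB1, RELA, CXCL8 and ALOX15B were named with their values known. KHSRP was named for its correlation with PTGS2. PRXL2B and PLAAT3 were listed under older symbols. The lowest chi-square per degree of freedom over 55 pairs of libraries was 16.6, so none was a duplicate.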

Additional observations from a re-analysis of the deposited data

Results flagged for a closer look

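PTGER2 in evexomostat replicate 002 was at 1.83 CPM, against 3.42 to 3.69 CPM in the other 4 evexomostat libraries, and stood out by the gap to its nearest neighbour. It was the only such value among 20 groups of libraries examined (10 genes in each treatment), where about 1 would be so by chance. Without this library the log2 fold change of PTGER2 was -0.80 (edgeR adjusted p 0.123). The same library had the lowest PTGS2 (2.95 CPM), PTGS1 (4.53 CPM) and PLA2G4A (6.70 CPM) of the evexomostat group. The cause was not tested.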

How the results depend on the processing

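The cause of a change was not tested. The 101 genes past the threshold (29 higher, 72 lower) became 649 with DESeq2 (200 higher, 449 lower), 1059 with limma-voom and quality weights (384 and 675) and 733 on the 8 libraries whose numbers occur in both groups (225 and 508). Those 8 libraries lack the outlying vehicle replicate 001, as well as vehicle replicate 006 and evexomostat replicate 002. Lower genes numbered 42 with upper quartile scaling and 31 and 30 on RPM by limma-trend with pseudocounts of 1 and 0.1, where the all-gene median shifted by 0.11 and 0.14. The 2 list genes became 13 with DESeq2, 16 with quality weights and 10 on the 8 libraries. On RPM they became 1 and 0, where 20 and 21 list genes had an unadjusted p under 0.05. Over all genes 2220 and 2202 had such a p on RPM. Leaving out each library gave 1 to 865 genes (1 to 328 higher, 0 to 537 lower), 0 to 4 of the 10 pathway genes and 0 to 12 list genes. The highest counts came without vehicle replicate 001. Totals were 2, 46, 28, 1 and 3 without evexomostat replicates 002, 003, 004, 005 and 007, and 52, 46 and 56 without vehicle replicates 003, 004 and 007. In edgeR 0 pathway genes passed without evexomostat replicates 002, 005 or 007. In each of these fits 4 had an unadjusted p under 0.05, among them PTGS2, which was chosen by its value in this contrast. Of the list genes 0 passed without these or replicate 003, where 24 to 27 had such a p. Over all genes of the fits without replicates 002, 003, 005 and 007, such a p was held by 1884, 2058, 1833 and 1649. The deviations of same-numbered libraries from their group means correlated at -0.27, 0.07, 0.05 and -0.10. The labels do not say whether such libraries were matched, and these correlations cannot show it. The replicate block on these 8 libraries called 107 genes, PLA2G4A among them. It did not call PTGES (adjusted p 0.0664), PDE4D (0.0906) or RELB (0.0876). The list genes AKR1B1 (0.037), CXCL8 and HIF1A were gained. Some log2 fold changes reversed sign, none past the threshold. PTGER4 reached 0.0623 with quality weights, 0.47 with the replicate block, 0.41 on the same libraries unblocked, 0.0302 and 0.0363 on RPM, and -0.37 to 0.0468 over left-out libraries. ABCF3 reached -0.0016 blocked, -0.0032 unblocked and -0.0128 to 0.0947 over left-out libraries. TMEM179B reached 0.0254 with upper quartile scaling, 0.0065 with quality weights, 0.0711 and 0.0748 on RPM and -0.0618 to 0.0212 over left-out libraries. KHSRP reached -0.0384 blocked, -0.0437 unblocked and -0.0401 to 0.15 over left-out libraries, and SMC1A 0.0297 and 0.0299 on RPM and -0.18 to 0.0648 over left-out libraries. A count of 3 was worth 0.0764 to 0.132 RPM, a floor for counting error only that limits HPGD.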
